A study of Mus musculus with 3 samples.

Results

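The long intergenic noncoding RNA (lincRNA) regions of the array are stretches of the mouse genome, given in build mm9, that were put on the array as candidate noncoding transcripts between protein-coding genes. Members were the non-control probes of the array's lincRNA probe series, outside the Malat1 and Neat1 stretch of chromosome 19, grouped by interval and strand. They came to 4614 regions read by 16217 probes, of 4622 regions and 16251 probes in that series. RNA came from HoxA9-Meis1 AML cells, acute myeloid leukaemia cells of C57Bl/6 mice isolated from whole bone marrow and kept in SFEM medium. The cells were left untreated, were given Pyrydopyrazine A2 at 3.4 µM, or were given RA (all-trans retinoic acid) together with D3V, the vitamin D compound 1α-hydroxy-D3, at 10 µM each, in all cases for 24 h. All 3 groups carry the same leukaemia background, with 1 one-colour array for each. The labels give neither the vector and promoter behind HoxA9 and Meis1 nor the number of mice or clones.

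LincRNAs are transcribed by RNA polymerase II, are often spliced and polyadenylated, and hold no long open reading frame. Many are present at low abundance and in few cell types. The best studied act on chromatin, as Xist does on the X chromosome, on transcription near their own locus, or as hosts of small RNAs. In blood cells, members of the class have been tied to the Hox clusters and to the choice between proliferation and myeloid maturation.

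Each probe is a 60-base oligonucleotide. The probes below belong to the regions on which the results turn, and all are written 5′ to 3′ as the deposited files give them. The first set reads chr8:82836971-82849309 (reverse strand), which had the largest difference from untreated of any measured region on the A2 array. The second reads chr6:31233512-31241062 (forward), the next in that order and far above untreated on both treated arrays, and the third reads chr17:15100982-15115630 (reverse), the lowest on both treated arrays among regions with at least 2 measured probes.
A_30_P01022866: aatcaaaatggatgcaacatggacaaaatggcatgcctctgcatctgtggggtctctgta
A_30_P01029486: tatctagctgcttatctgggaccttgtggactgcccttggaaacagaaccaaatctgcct
A_30_P01031675: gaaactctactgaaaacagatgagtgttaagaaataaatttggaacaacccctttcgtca
A_30_P01022038: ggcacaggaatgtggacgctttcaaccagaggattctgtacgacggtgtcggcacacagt
A_30_P01030148: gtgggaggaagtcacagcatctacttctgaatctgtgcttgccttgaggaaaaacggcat
A_30_P01020263: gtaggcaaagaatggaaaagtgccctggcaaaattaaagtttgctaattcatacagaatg
A_30_P01027464: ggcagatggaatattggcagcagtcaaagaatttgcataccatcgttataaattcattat
A_30_P01028116: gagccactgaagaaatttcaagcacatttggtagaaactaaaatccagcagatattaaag

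A further set is shown because many of the largest decreases rested on probes of this kind. Capitals mark a stretch of 8 or more bases in which G and T alternate. The first 5 are among the brightest such region probes on the untreated array that were detected on all 3 arrays, and the last is the single probe of chr5:74340084-74346709 (reverse), which had the lowest difference of any region.
A_30_P01032549: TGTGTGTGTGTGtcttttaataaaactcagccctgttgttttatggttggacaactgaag
A_30_P01025521: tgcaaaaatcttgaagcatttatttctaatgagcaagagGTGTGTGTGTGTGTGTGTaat
A_30_P01020013: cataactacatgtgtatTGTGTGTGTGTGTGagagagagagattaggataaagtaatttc
A_30_P01020464: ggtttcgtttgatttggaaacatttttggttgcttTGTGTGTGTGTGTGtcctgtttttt
A_30_P01032773: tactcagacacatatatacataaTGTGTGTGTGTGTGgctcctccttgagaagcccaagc
A_30_P01029441: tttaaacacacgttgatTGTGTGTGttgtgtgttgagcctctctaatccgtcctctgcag

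The sources disagree on which treated array is which. Each treated column of the authors' deposited value table ranked its probes exactly as the scanner file of the other treatment did (Spearman's rho = 1 for both). The gene for the vitamin D-degrading enzyme Cyp24a1 had a signal of -6.34 on the untreated array, 6.07 on the A2 array and -5.85 on the RA plus D3V array. Cyp26a1, which degrades retinoic acid, was likewise well above background only on the A2 array. The scanner labels are used here: the "A2 array" and the "RA plus D3V array" are the arrays so labelled, not settled treatments. The control column of the table matched no scanner file (rho = 0.936 with the untreated array) and served as a second control. A signal is the log2 processed intensity relative to the 75th percentile of its array, so that 0 is that percentile. With 1 array a condition there is no test across samples, and each difference describes those arrays alone. On each array 12 of 13 myeloid and leukaemia markers had a probe well above background, Mpo (9.39, 7.17 and 7.82 on the untreated, A2 and RA plus D3V arrays) and Hoxa9 (4.34, 5.53 and 4.72) among them, while Meis1 was not. Of the markers of other cell types, 4 of 5 B cell genes and 4 to 6 of 6 T and NK cell genes were above background on each array. Their summed linear signal was 18.9, 18.6 and 12.5 for B cells, 17.6, 16.8 and 11.7 for T and NK cells, and 1346, 826 and 923 for the myeloid list. The T and NK sum was carried by Nkg7 (3.40, 3.62 and 2.84) and Cd3e (2.18, 1.94 and 1.95), while Cd3d (-0.45, -2.31 and -2.01) and Cd2 (0.29, -1.52 and -1.60) were lower on both treated arrays. Gzma was lower on the A2 array (-1.59 against -3.67) and not detected on the RA plus D3V array, and Cd3g was detected on the untreated array alone. Stromal genes had 1, 2 and 1 of 5 detected (sums 0.190, 0.443 and 0.245). Their part in the differences below was not tested, and fewer cells of a type cannot be told apart from less RNA per cell.

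The 4614 regions covered 3548 intervals, 1066 of which had probes on both strands, with 2321 regions on the forward and 2293 on the reverse strand. The median interval was 10700 bases long. A region had 1 probe in 691 cases, 2 in 534, 3 in 1805 and 4 to 10 in 1584. Intervals overlap: 2104 regions shared sequence with another region of the same strand, and merging them left 3369. Of all regions, 540 held a probe of an annotated gene on the same strand, 305 on the opposite strand only, and 3769 held none, so some regions overlap known transcripts. The median distance from a region to the nearest gene probe outside it was 22059 bases.

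LincRNA probes were detected less often than the other probes of the same arrays. Well above background, by the scanner software's flag, were 25.6% of 16207 region probes on the untreated array, 26.5% on the A2 array and 27.5% on the RA plus D3V array, where the other 39415 probes gave 52.9%, 53.5% and 53.4%. At least 1 probe was detected in 2210 regions on the untreated array, 2268 on the A2 array and 2336 on the RA plus D3V array. In 1936 regions a probe was detected on all 3 arrays, and in 1941 none was detected on any. The detected share went with base composition: on the untreated array it was 18.7% among region probes of at most 35% G and C and 57.9% among those above 55%, against 49.4% and 70.5% of other probes. Regions with a gene probe inside on the same strand were detected in 60% of cases on the untreated array. Those with one on the opposite strand only were detected in 58.4%, and those with none inside in 45.3%.

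Against the untreated array, the A2 array gave nearly equal numbers of lincRNA regions in each direction. A region was measured in a comparison when at least 1 of its probes was well above background on both arrays, its difference being the mean over such probes. Of 1968 measured regions, 96 (4.88%) were at least 2-fold higher and 93 (4.73%) at least 2-fold lower on the A2 array. Among other genes, whose measured probes were averaged likewise, 8.28% were at least 2-fold higher and 6.6% lower. The median region differed by 0.17 and the middle 50% of regions lay between -0.18 and 0.47, with a median of -0.06 over other probes. Where at least 2 probes were measured (842 regions), all of them passed 2-fold upward in 19 regions (2.26%) and downward in 15 (1.78%). The same rule called 5.26% of other genes higher and 2.45% lower. Probe by probe, 5.94% of 3601 region probes were higher and 5.69% lower, against 8.1% and 6.35% of other probes and 7.83% and 6.24% of all probes. The balance and the counts depended on the processing: 70 regions were higher and 98 lower against the control column of the value table, 97 and 73 without probes holding runs of alternating G and T or A and C, 81 and 100 after quantile normalization, and 34 and 34 after normexp background correction.

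The RA plus D3V array leaned upward. Its comparison shares the untreated array with that of the A2 array. Of 1975 regions measured against the untreated array, 179 (9.06%) were at least 2-fold higher and 83 (4.20%) lower, so that 68.3% of the differing regions were higher. Other genes gave 7.07% and 4.99%. The median region differed by 0.27, against -0.05 over other probes. With all of at least 2 measured probes past 2-fold, 41 of 845 regions were higher and 13 lower (4.85% and 1.54%), against 3.3% and 1.23% of other genes. Probe by probe, 11.1% of 3631 region probes were higher and 4.46% lower, against 7.53% and 4.82% of other probes and 8.15% and 4.76% of all probes. The upward lean depended on the processing: the share that was higher came to 55.6% after quantile normalization, 58.6% after normexp background correction, 50.6% among the brighter probes alone, and 57.7% against the control column of the value table. It rose to 71.3% and 75.5% after scaling to the median and the 75th percentile of detected probes, and to 73.4% without probes holding runs. With overlapping intervals merged, 127 of 1603 regions were higher and 62 lower.

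Between the treated arrays, the A2 array was the lower. Of 2078 measured regions 22 (1.06%) were at least 2-fold higher on it and 85 (4.09%) lower, against 4.17% and 3.9% of other genes. The median region differed by -0.12, and other probes by -0.01. By all of at least 2 probes, 5 of 908 regions were higher and 22 lower, against 2.44% and 1.61% of other genes. Probe by probe, 1.14% of 3845 region probes were higher and 6.22% lower, against 4% and 3.91% of other probes and 3.54% and 4.3% of all probes. Of the regions past 2-fold 20.6% were higher on the A2 array, a share that was 33.3% after quantile normalization and 47.6% after normexp correction. If the treated labels are exchanged, the signs of this comparison turn.

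**Figure D1:**
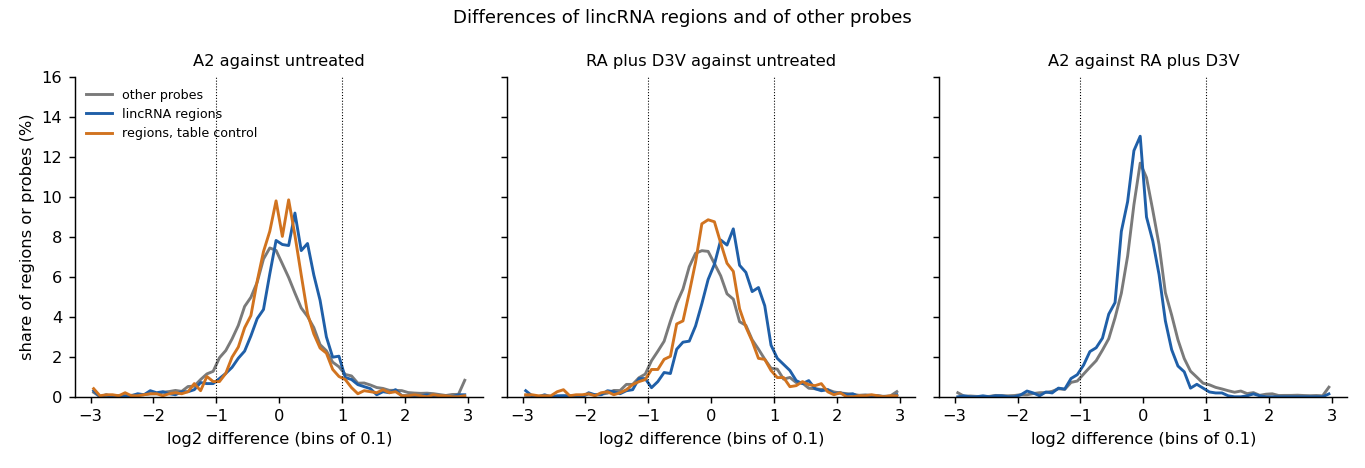
Distribution of log2 differences (x axis, bins of 0.1, values beyond 3 gathered in the end bins) as a share of regions or probes (y axis, %), in the 3 comparisons. Blue lines are lincRNA regions, grey lines other probes, orange lines the same regions against the control column of the value table, and dotted lines mark 2-fold. The blue curves lie to the right of the grey ones in both comparisons with the untreated array (region medians 0.17 and 0.27), and the orange curves are centred near 0 (-0.00 and 0.02).

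The medians against untreated depended on the choice of control. Over the regions measured in the A2 comparison, the untreated scanner array minus the control column had a median of -0.23 (SD 0.37), with 59 of 1968 regions at least 2-fold apart. Over the RA plus D3V comparison it was -0.23 as well (SD 0.40, 62 of 1975 regions). Against the control column the median region differed by -0.00 for the A2 array and by 0.02 for the RA plus D3V array. Among all region probes detected on the untreated array the control sources differed with an SD of 0.73, and 7.31% of probes were at least 2-fold apart, while other probes gave an SD of 0.43 and 2.06%. Detected region probes were dimmer than other probes there (median signal -2.23 against 0.94). The contrast is thus not matched for signal, nor for detection in the control column. Of the regions 2-fold higher on the A2 array, 48 of 96 were also 2-fold higher against the control column, and of those lower 62 of 93 were lower. For the RA plus D3V array these were 94 of 179 and 64 of 83. Regions in which all of at least 2 measured probes passed 2-fold kept their call more often. These were 16 of 19 and 13 of 15 for the A2 array, and 35 of 41 and 12 of 13 for the RA plus D3V array. Regions of at least 2 measured probes that passed 2-fold only in their mean are not in these counts. The number of probes is thus not told apart from the stricter rule. The columns of the value table hold nearly the same sorted values, so scaling and control changed together here.

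The probes of one region agreed in part. Within regions of at least 2 measured probes, the SD between probes of the log2 difference was 0.46 for the A2 array against untreated, 0.44 for the RA plus D3V array and 0.34 between the treated arrays. The median SD between replicate spots of one probe on one array was 0.07 or less. That is an SD of signals on 1 array, over detected probes outside the regions with 10 spots each. It is not matched to region probes in signal or measure, so the SDs cannot be set side by side directly. Pairs of probes correlated with r = 0.57, 0.59 and 0.63 in the 3 comparisons (3094, 3159 and 3355 pairs, which share arrays and, within a region, probes). Of pairs with at least 1 probe past 2-fold, both passed in the same direction in 25.7%, 31.5% and 32.8%, and they passed in opposite directions in 2, 11 and 0 pairs. Regions with 1 measured probe passed 2-fold in 10.6% of cases in the A2 comparison and regions with more in 8.31%. For the RA plus D3V array these shares were 14.2% and 12.1%, and between the treated arrays 5.13% and 5.18%.

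Agreement declined with the distance between probes. For the A2 array against untreated, pairs whose starts lay from 60 to under 300 bases apart had r = 0.67 (1767 pairs). At 300 to under 3000 bases r was 0.53 (775 pairs), and at 3000 bases or more it was 0.21 (455 pairs from 151 regions). The RA plus D3V array gave 0.70, 0.51 and 0.26 in the same classes, and the treated arrays against each other 0.77, 0.51 and 0.30. The median gap between the differences of a pair grew from 0.24 to 0.45 for A2 and from 0.24 to 0.51 for RA plus D3V. The few overlapping pairs had r = 0.60 (54 pairs), 0.70 (53) and 0.51 (54).

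The upward shift on the RA plus D3V array was larger among dim probes. Among region probes with a mean signal between -3 and -2, the median difference was 0.36 and 15.5% were at least 2-fold higher. Among those above 2 the median was 0.07 and 6.73% were higher. Other probes showed the same slope from a lower start: 0.16 and 13.8% between -3 and -2, and -0.11 and 4.84% above 2. The share did not keep rising toward the dimmest probes. Below -3 the median of region probes was 0.33 and 7.21% were higher, against 0.23 and 7.79% for other probes. For the A2 array the region medians stayed between 0.08 and 0.15 in every class of signal, while those of other probes lay between -0.10 and 0.06. Base composition moved with the shift too: region probes of at most 35% G and C had a median difference of -0.07 on the A2 array and 0.00 on the RA plus D3V array, and probes above 55% had 0.23 and 0.31. Other probes gave -0.14 and -0.17 at the low end, and 0.15 and 0.23 at the high end. The SD between probes of one region was 0.47 among the dimmer regions of the A2 comparison and 0.37 among the brighter, split at their median signal.

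**Figure D2:**
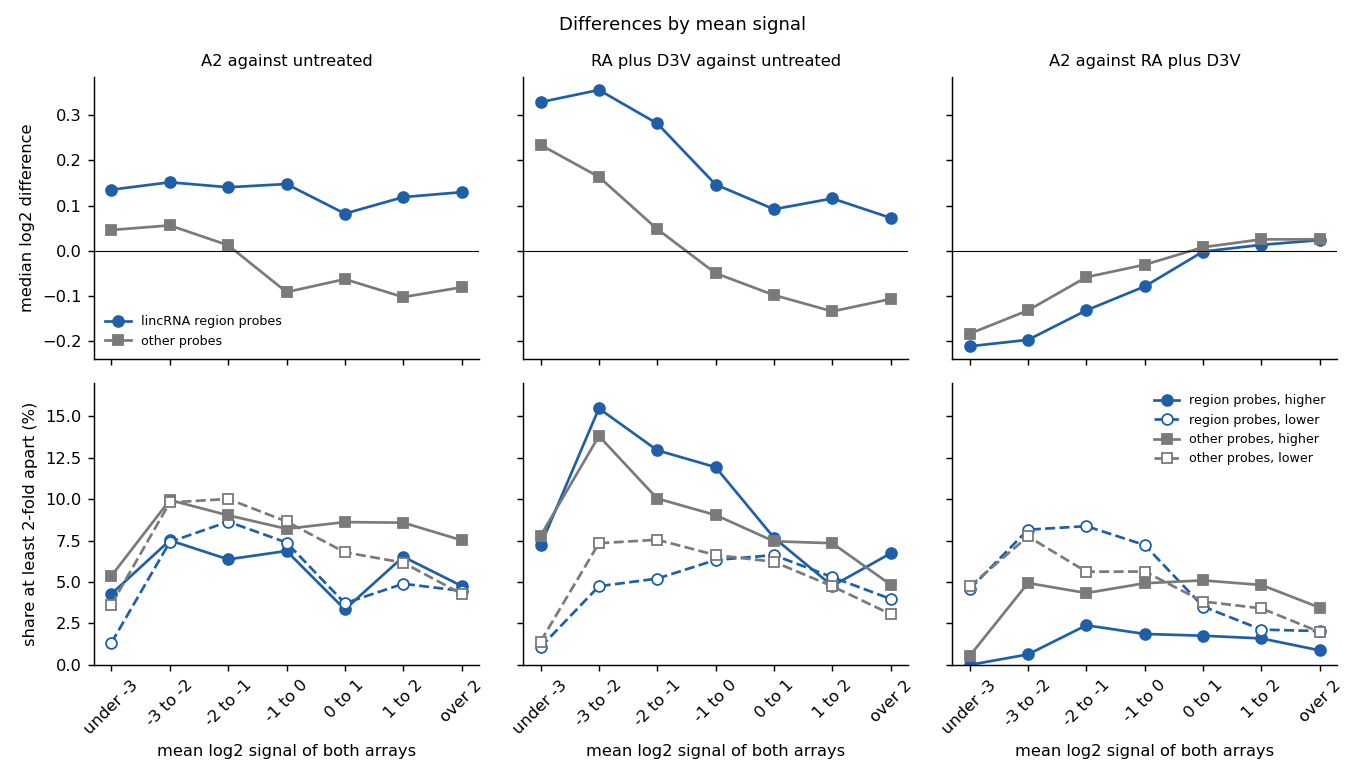
Median log2 difference (top row) and share of probes at least 2-fold apart (bottom row, %) by the mean log2 signal of the compared arrays (x axis), for lincRNA region probes (blue circles) and other probes (grey squares); filled marks and solid lines in the bottom row are higher, open marks and dashed lines lower. In the RA plus D3V comparison the median of region probes is 0.36 at signals from -3 to -2 and 0.07 above 2, and the grey line runs below it throughout.

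Probes with a GT run were low on both treated arrays. Such a run, 8 or more bases long and searched on the probe strand, was in 115 of 16207 region probes (0.710%) and 305 of 39415 other probes (0.774%). A_30_P01032549, the first printed above (chr17:71267639-71267698, forward), had signals of 5.61 on the untreated array, 3.70 on the A2 array and 3.67 on the RA plus D3V array. A_30_P01032773 (chr1:182687369-182687428, forward) had 4.09, 1.32 and 1.42, and A_30_P01029441 0.40, -4.02 and -3.79. In each the untreated array was the highest, but these probes were picked for a bright untreated signal or for the lowest difference. Their order of arrays therefore adds nothing to the counts that follow. Of 53 measured region probes with the run 26 were at least 2-fold lower on the A2 array (median -0.92) and none higher, and of 52 on the RA plus D3V array 26 were lower (median -1.03) and 2 higher.

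The complementary run, alternating A and C, was in 102 region probes, and its measured probes had medians of 0.06 (26 probes) and 0.24 (24 probes), near those without either run (0.14 and 0.26). GT-run probes outside the lincRNA series gave medians of -1.04 and -0.96. Between the treated arrays the GT-run probes of regions had a median of -0.19. Against the control column of the value table the region medians were -0.65 and -0.74, and the untreated scanner array was above that column at these probes (median 0.29) and below it at region probes as a whole (-0.17). In 16 of the 93 regions lower on the A2 array and 16 of the 83 lower on the RA plus D3V array, every measured probe held the run, which left 77 and 67 regions. The cause was not tested.

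**Figure D3:**
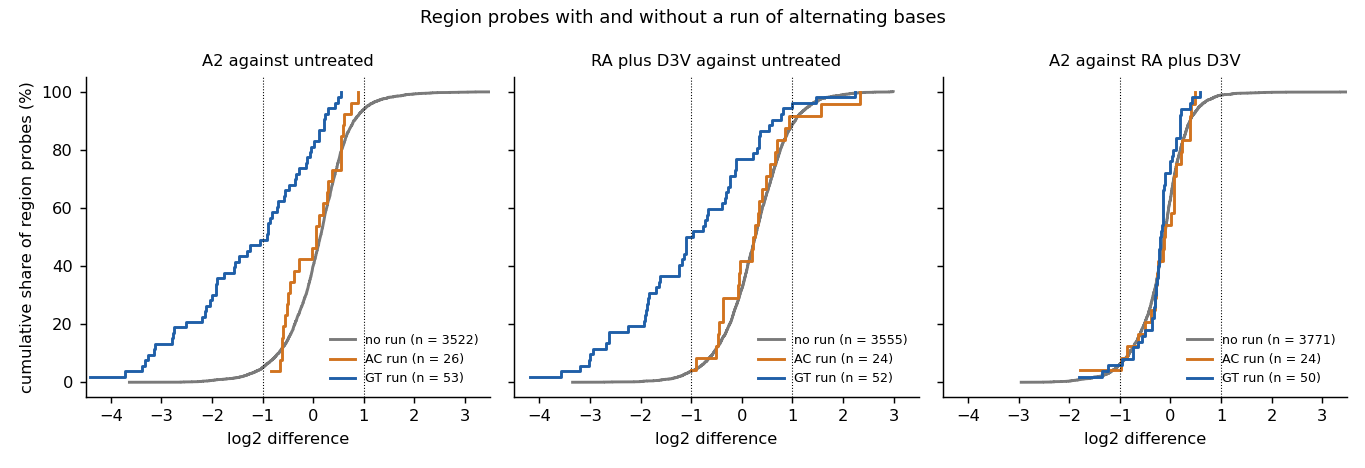
Cumulative share of measured region probes (y axis, %) by log2 difference (x axis), for probes with a run of alternating G and T (blue), of A and C (orange) and with neither (grey), with the number of probes in each panel. The blue curves lie left of the others in both comparisons with the untreated array (medians -0.92 and -1.03), and between the treated arrays the medians are -0.19, -0.11 and -0.12.

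Among regions whose measured probes, at least 2 and without such a run, all passed 2-fold, the 8 largest upward differences on the A2 array lay between 1.89 and 5.74. The highest was chr8:82836971-82849309 (reverse), with no gene probe within 100 kb. Its probe A_30_P01022866 had signals of -3.80 on the untreated array, 2.23 on the A2 array and -3.22 on the RA plus D3V array. A_30_P01029486 had -2.78, 2.66 and -1.83. A_30_P01031675 had -4.81, which was not well above background, then 0.82 and -3.74. All 3 probes were highest on the A2 array, an order that the rule which picked the region required of its measured probes. The region's difference was 5.74 against untreated (2 probes), 5.07 against the control column and 4.84 against the RA plus D3V array (3 probes). On that array it differed from untreated by 0.76. A neighbouring interval on the same strand, chr8:82854412-82919089, was not above background on the other arrays and had all 3 probes detected on the A2 array (-1.07, -1.84 and -2.53), which puts it at least 5.49-fold above the untreated array.

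Overlapping intervals at chr6:31233512-31241062 and chr6:31170350-31287353 (forward) were higher on both treated arrays. The second holds a probe of 2210408F21Rik, which was not above background on any array. The probes of the first, printed above, had signals of -3.44 and -3.74 on the untreated array, -0.23 and -0.78 on the A2 array, and -0.45 and -1.60 on the RA plus D3V array. Their mean difference was 3.08 and 2.56, and the wider interval, read by other probes, gave 2.85 and 2.27. A separate interval on the opposite strand, chr6:31078802-31079644 (reverse), differed by 1.83 and 1.99.

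Of these regions 4 hold a gene probe, and where that probe was measured its difference had the same sign on the A2 array. The region chr10:39666719-39679959 (reverse), in which the pseudogene Mfsd4b3-ps lies, had mean signals of -3.03, -0.13 and -1.93 on the untreated, A2 and RA plus D3V arrays. It differed by 2.90 and 1.09, and the Mfsd4b3-ps probe by 2.57 and 1.02. The region chr1:175653557-175671940 (reverse) holds Ifi207, of the interferon-inducible p200 family. Its means were 0.78, 2.75 and 2.02, with differences of 1.96 and 1.23, where the Ifi207 probes averaged 2.48 and 1.88. The region chr17:87674225-87682154 (reverse) with 4833418N02Rik inside had means of -3.43, -1.63 and -3.74, with 4, 6 and 2 of 6 probes detected. It differed by 1.89 on the A2 array and by 0.11 on the other treated array, and the probe of 4833418N02Rik by 1.25 and -0.04.

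Other upward differences lay in regions with no gene probe inside. The region chr1:135956616-135957485 (reverse), 12559 bases from Fmod, the matrix protein fibromodulin, had means of -4.10, -1.46 and -1.02, and differed by 2.15 on the A2 array and 2.61 on the RA plus D3V array. It was the highest of the 8 largest upward differences of the latter, which ran from 1.99 to 2.61. The region chr3:30754871-30776438 (forward), near the receptor gene Gpr160, had -2.65, -0.25 and -1.39 (differences 2.26 and 1.16), and the Gpr160 probes differed by 2.12 and 0.58.

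On the RA plus D3V array the region chr7:113768215-113783490 (reverse) had 5 of 5 probes detected, against 2 on each of the other arrays. Its means were -4.14, -3.64 and -1.85, with differences of 1.13 for the A2 array and 2.46 for the RA plus D3V array. The region chr13:108653722-108654406 (reverse) had -3.25, -1.51 and -1.03, differing by 1.75 and 2.23. The region chr1:85304494-85305390 (reverse) had -1.73, -0.48 and 0.34, differing by 1.26 and 2.07. In each of these the untreated array was the lowest of 3, though the rule that picked them required it to lie below the RA plus D3V array. By contrast chr4:149445201-149445902 (forward) had -0.84, -0.61 and 1.28, so it was high on 1 treated array only, with differences of 0.23 and 2.12.

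**Figure D4:**
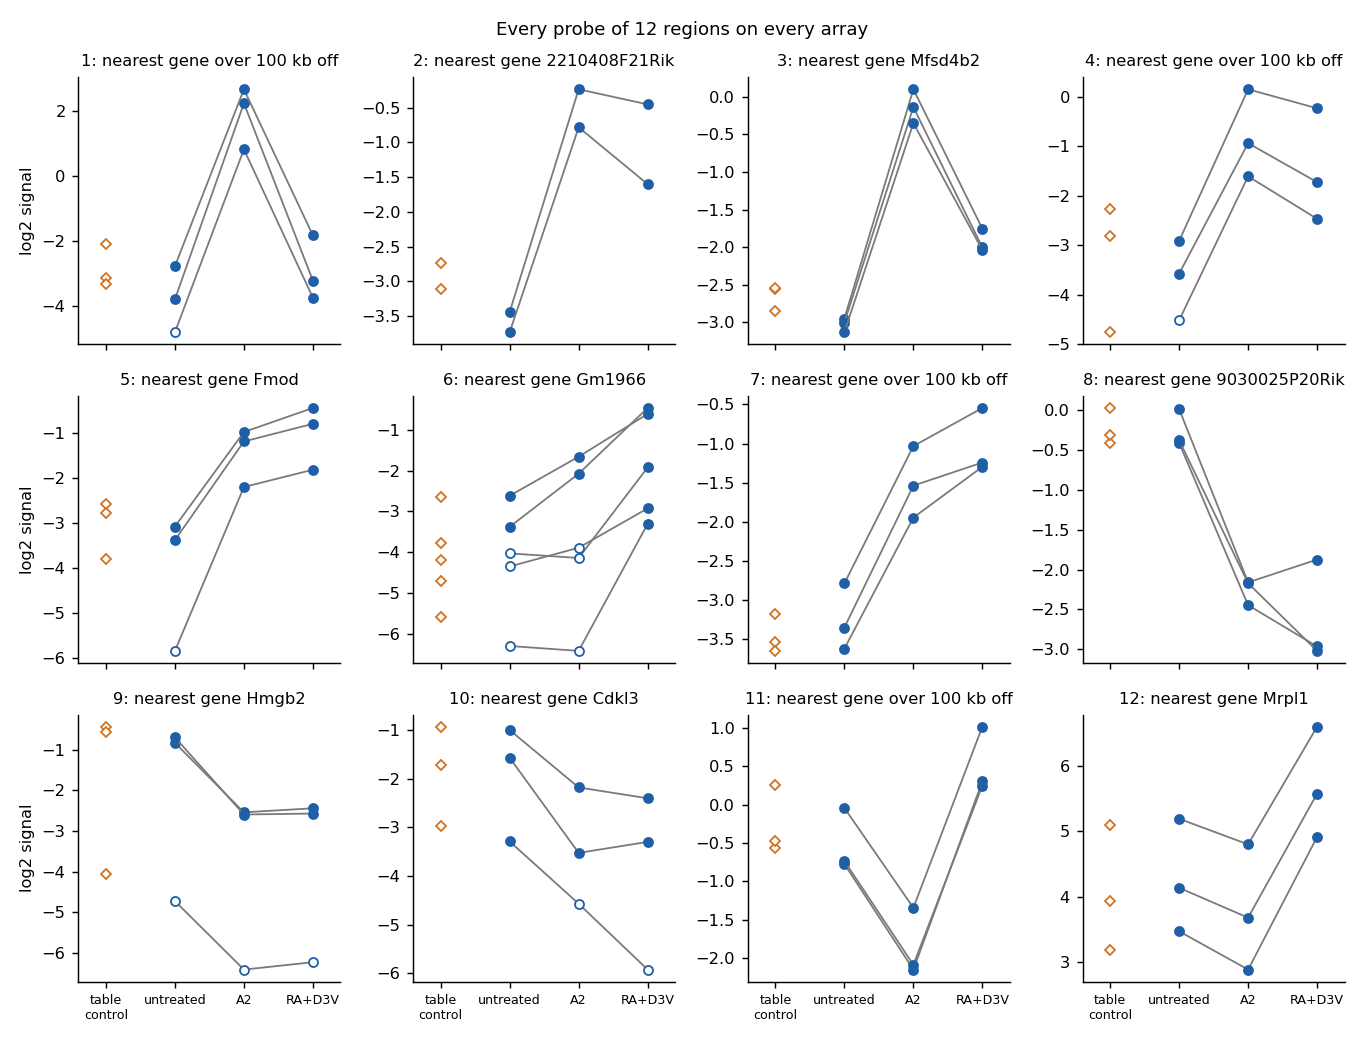
Log2 signal (y axis, its range set for each panel) of every probe of 12 regions on the untreated array, the A2 array and the RA plus D3V array, joined by grey lines; filled circles are well above background, open circles are not. Orange diamonds are the same probes in the control column of the value table, scaled to its own 75th percentile. Panels are numbered and give the nearest gene outside the region where it lies within 100 kb: region 1 (the chromosome 8 region with the largest difference) is high on the A2 array alone, regions 5 (near Fmod) and 7 on both treated arrays, regions 8 (near 9030025P20Rik), 9 (near Hmgb2) and 10 (near Cdkl3) are low on both, and regions 11 and 12 (near Mrpl1) differ between the treated arrays.

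The 8 largest downward differences on the A2 array lay between -2.005 and -1.28, and those on the RA plus D3V array between -2.37 and -1.28. The region chr17:15100982-15115630 (reverse) led both. Its printed probes had signals of 0.02, -0.41 and -0.37 on the untreated array, -2.16, -2.45 and -2.17 on the A2 array, and -1.87, -2.97 and -3.02 on the RA plus D3V array. All 3 were lower on both treated arrays, which the rule that picked the region required. The means were -2.005 and -2.37, and -1.92 and -2.36 against the control column. The region chr8:59994102-59994797 (forward) lies 1114 bases from a probe of Hmgb2, a chromatin protein of dividing cells. It had means of -2.08, -3.85 and -3.74, differing by -1.80 and -1.74, and Hmgb2 itself differed by -0.97 and -1.01. The region chr11:51854060-51903278 (forward), near the kinase gene Cdkl3, differed by -1.57 on both. The region chr4:116791819-116798263 (reverse), with Btbd19 inside, differed by -1.28 and -1.51, where a Btbd19 probe differed by -1.32 and -1.46.

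Lower on the A2 array than on untreated was chr11:6421951-6429173 (forward), which lies opposite to Snhg15, a host gene of small nucleolar RNAs. It had means of -3.82, -4.71 and -3.90 over 9 probes, 4 of which were detected on each array and differed by -1.40 on the A2 array and -0.56 on the RA plus D3V array. Lower on the RA plus D3V array were chr5:22890322-22939119 (reverse), which holds 5031425E22Rik, with means of 0.41, -0.65 and -1.002, and chr5:37051650-37110575 (reverse), which holds D5Ertd579e, with 0.30, -0.48 and -1.08. The first differed by -1.42 there, while a probe of 5031425E22Rik differed by 0.54. The second differed by -1.38 and D5Ertd579e by -1.03.

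Between the treated arrays chrX:18734106-18744367 (reverse) was the lowest of the regions with at least 2 measured probes. Its means were -0.52 on the untreated array, -1.86 on the A2 array and 0.53 on the RA plus D3V array. It thus lay below untreated on one treated array (-1.35) and above it on the other (1.04), and the treated arrays differed by -2.39. The bright region chr5:96591892-96606467 (forward) had 4.27, 3.79 and 5.69, and chr14:55433382-55452757 (reverse) 4.15, 3.76 and 5.66. Each differed by -1.90 between the treated arrays, and by -0.48 and -0.38 between the A2 array and untreated. The region chr16:90008636-90015586 (reverse), with 5 of 5 probes detected on every array, had -2.76, -3.24 and -1.40.

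Some regions were above background on only 1 array of a compared pair, so that their difference is a bound. It is the mean, over the probes detected on the bright array, of a gap in signal. That gap is the signal there minus the larger of the probe's own signal and the lowest detected signal on the dim array. With at least 2 probes on the bright array and none on the other, 35 regions were detected on the A2 array and not on untreated, 11 of them by a bound of at least 2-fold, and 36 on the RA plus D3V array, 22 of them at least 2-fold. In the opposite direction there were 17 regions each, of which 10 and 7 were at least 2-fold. Shares of other genes under this rule are not given here, so the counts show nothing particular to lincRNA regions. Well above background were 25.6%, 26.5% and 27.5% of region probes on the untreated, A2 and RA plus D3V arrays. Other probes gave 52.9%, 53.5% and 53.4%. The largest bound was at least 25.3-fold, for chr18:5119300-5181600 (reverse), 254 bases from a probe of Svil, the actin-binding protein supervillin, with 2 of 5 probes detected on the A2 array. Svil itself differed by 0.28 on the A2 array and 0.64 on the RA plus D3V array. The region chr2:36112819-36114110 (forward) lies 5116 bases from a probe of Ptgs1, which makes prostaglandin H2. All 3 of its probes were detected on the A2 array (-0.76, -2.13 and -1.34) and none on the others, for a bound of at least 6.95-fold, and Ptgs1 differed by 3.84 and 1.43.

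For the RA plus D3V array the largest bound was at least 8.75-fold, for chr13:31736054-31781679 (reverse), 12856 bases from Foxf2, where 2 of 8 probes were detected (-0.27 and -2.01) and the others stayed below background. The region chr1:139847592-139848243 (forward) had all 3 probes detected on both treated arrays (means -2.84 and -1.62) and none on untreated (-4.35), at least 5.97-fold for RA plus D3V. Detected on the untreated array and on no treated array was chr10:33707021-33709881 (reverse), with A830082N09Rik inside, by at least 5.65-fold over the A2 array and 5.50-fold over the other. The region chr16:84702353-84710928 (reverse) had 3 of 3 probes detected on the untreated array and on the RA plus D3V array and none on the A2 array, a bound of at least 5.40-fold.

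The differences of regions correlated with those of gene probes inside them, and only weakly with those of neighbouring genes. For regions with a measured gene probe inside on the same strand, r between the differences was 0.63 for the A2 array (192 regions), 0.59 for the RA plus D3V array (195) and 0.63 between the treated arrays (198). For the nearest gene within 100 kb of regions with no gene probe inside, r was 0.13 (962 regions), 0.07 (967) and 0.11 (1030). The points share their arrays, and overlapping intervals can share the same gene's value, so the regions counted here are not separate loci. Where the nearest gene lay on the same strand r was 0.19 and 0.12 against untreated, and on the opposite strand 0.06 and 0.00. Of 95 regions past 2-fold on the A2 array with such a neighbour, the gene passed 2-fold the same way in 17, where 8.28% of other genes were higher and 6.6% lower. Of 139 such regions on the RA plus D3V array the gene did so in 7, where other genes gave 7.07% and 4.99%. With a measured gene probe inside, it passed the same way in 15 of 24 regions past 2-fold on the A2 array and 14 of 32 on the RA plus D3V array. Regions with no gene probe inside were at least 2-fold higher on the RA plus D3V array in 10% of cases (153 of 1530), those with a gene probe inside on the same strand in 7.56% (22 of 291), and those with one on the opposite strand only in 2.60% (4 of 154). On the A2 array these shares were 4.74%, 5.86% and 4.40%.

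**Figure D5:**
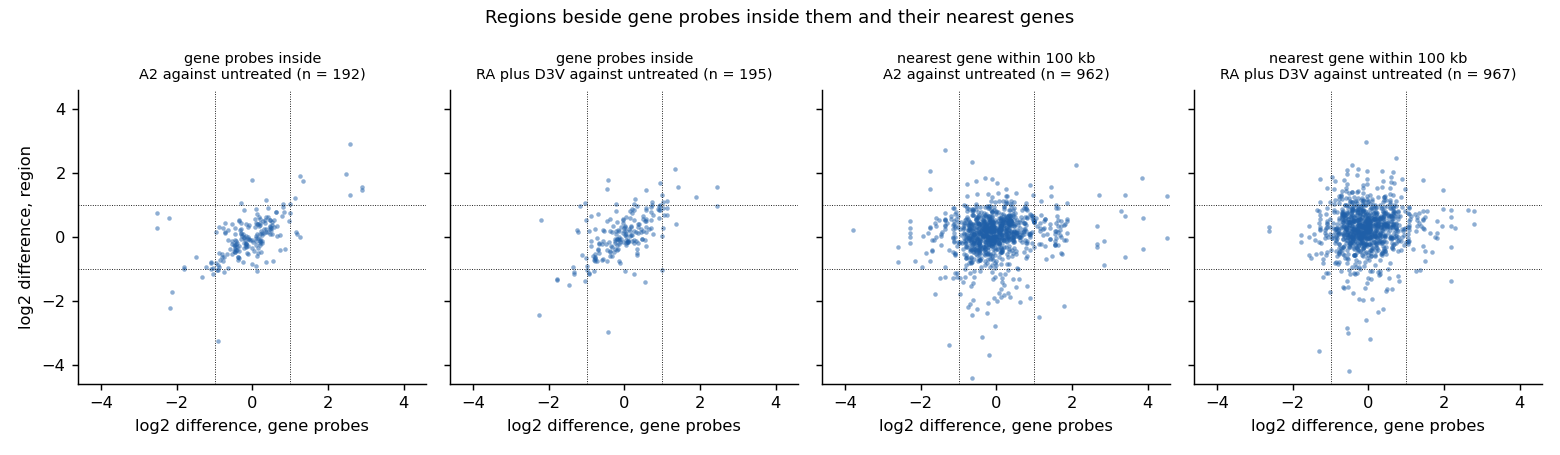
Log2 difference of each region (y axis) against that of gene probes inside its interval on the same strand (left panels) or of its nearest gene within 100 kb where no gene probe lies inside (right panels), for each treated array against untreated; values beyond 4.5 are drawn at 4.5 and dotted lines mark 2-fold. The left panels follow the diagonal (r = 0.63 and 0.59) and the right panels form a round cloud (r = 0.13 and 0.07).

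The differences of opposite strands of an interval correlated only weakly. Of the 1066 intervals with probes on both strands, 399 had both detected on the untreated array, 195 the forward strand alone, 223 the reverse alone and 249 neither. Over the 336 intervals with both strands measured in the A2 comparison, r between the strands' differences was 0.11, with 0.12 over 334 for the RA plus D3V array and 0.16 over 352 between the treated arrays. Probe pairs of a region, on the same strand and 3000 bases or more apart, gave 0.21, 0.26 and 0.30. Whether the strands differ independently was not tested. Of 54 intervals with a strand past 2-fold on the A2 array, both strands passed the same way in 4 and opposite ways in 1. Several of the widest gaps rested on 1 probe of a strand. At chr4:131905739-131910814 the forward strand had a difference of -0.04 (2 probes) and the reverse, which holds Snhg3, of -3.27 (1 probe), where a probe of Snhg3 differed by -0.91. At chr3:90425270-90435820, near the calcium-binding protein gene S100a6, the forward strand differed by -1.99 over 3 probes and the reverse by 0.69 on 1 probe. S100a6 itself differed by -0.63 on the A2 array and 1.36 on the RA plus D3V array. Between the treated arrays chr6:83368261-83407280 had 3 measured probes on each strand, and the forward strand differed by 0.38 and the reverse by -1.73.

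The files name 10 of the regions. XIST, which coats the inactive X chromosome of female cells, had 5 of 5 probes detected on every array, with means of 2.62 on the untreated array, 3.12 on the A2 array and 3.94 on the RA plus D3V array. It differed by 0.50 and 1.31, and Xist probes outside the lincRNA series by 0.28 and 1.00. All 5 probes gave the same order of arrays. Its antisense partner TSIX was not detected on any array. TUG1, a widely present nuclear and cytoplasmic RNA, had 5 of 5 probes detected on every array, with 0.40, -0.10 and -0.16 (differences -0.50 and -0.56), while 3 other Tug1 probes differed by -0.35, 0.54 and 0.26 on the A2 array and -0.46, 1.14 and 0.28 on the RA plus D3V array. Probes of one RNA thus took opposite signs.

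The other named regions had at most 2 of 5 probes detected on any array. LincP21, a p53-induced RNA beside the cell cycle inhibitor gene Cdkn1a, had 0, 1 and 2 of 5 probes detected on the untreated, A2 and RA plus D3V arrays, with means of -5.60, -4.95 and -3.86, and a wider interval there, chr17:29192453-29216073 (reverse), had 1, 1 and 2 of 2. HOTAIR, transcribed from the HoxC cluster, had 1 of 5 probes detected on each array, a difference of 0.35 and 0.54 on that probe, and the opposite sign against the control column (-0.28 and -0.23). NRON had 2 of 5 detected on each, KCNQ1ot1, the imprinted antisense RNA of Kcnq1, had 1, 2 and 2 of 5, with 1 probe at 0.74, 0.69 and 0.86 on the untreated, A2 and RA plus D3V arrays, and PINC 1, 0 and 0 of 5. H19, an imprinted RNA of fetal tissue, and BRN1-A had none on any array, which shows only that they were not well above background here.

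Of a list of genes of the leukaemia, its maturation and the response to retinoids and vitamin D, 7 were the nearest gene within 100 kb of a region. The region near the proto-oncogene Myc, chr15:61870759-61938796 (forward), had means of -4.38 on the untreated array, -4.80 on the A2 array and -2.66 on the RA plus D3V array, with 1, 1 and 3 of 3 probes detected. Its 1 probe measured throughout differed by 0.59 and 1.78, while Myc differed by -1.59 and -0.64. Near Vdr, the vitamin D receptor, chr15:97674015-97674423 (reverse) had 1 of 3 probes detected on the A2 array (-3.33) and none elsewhere, where Vdr differed by 3.76 and -0.64. Regions near Meis1 and Hoxb4 were not detected on any array. Near Ptgs2, the inducible prostaglandin synthase, the reverse strand of chr1:152001112-152012796 had 0, 0 and 2 of 3 probes detected and the forward strand none, and Ptgs2 differed by 0.95 and 2.93. Of the regions near Klf4, a factor of monocyte maturation, the reverse strand of chr4:55465247-55494547 had 1, 1 and 2 of 4 probes detected, and Klf4 differed by -0.75 and 2.28.

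Known noncoding RNAs read by probes outside the lincRNA series give a reference for the class. Of 35 on a list drawn up with earlier results of these data known, 21 were on the array, each given here by 1 probe. In each comparison with untreated 15 were measured: 0 were at least 2-fold higher and 3 lower on the A2 array (median -0.35), where 8.1% of probes outside the lincRNA series were higher and 6.35% lower. On the RA plus D3V array 3 were higher and 2 lower (median 0.58), where such probes gave 7.53% and 4.82%. Lower on both were Snhg12, a small nucleolar RNA host, with signals of 3.31, 1.41 and 1.99 (differences -1.90 and -1.32), and Rmrp, the RNA of RNase MRP, with 2.15, 0.70 and 0.43 (-1.45 and -1.72). Snhg1 had 2.60, 1.12 and 1.70, so it was 2-fold lower on the A2 array only (-1.48 and -0.89). Higher on the RA plus D3V array were Airn, an imprinted antisense RNA (-3.26, -2.62 and -1.96, difference 1.30), Xist by 1.28 and Mir22hg, the host of miR-22, by 1.14. Airn had 1 of 4 probes detected on each array, and another Xist probe differed by 0.73, under 2-fold. Pvt1, beside Myc, had 0.91, 0.53 and 1.73, a difference of -1.19 between the treated arrays.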

How the data were processed

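RNA of 1 sample for each of 3 groups was labelled with Cy3 (per the labels) and hybridized to 1 one-colour mouse array each, all 24 h after treatment. Spot intensity in the deposited files came out of Agilent Feature Extraction 11.5.1.1, per the submitters' processing notes. Per the file headers, the processed signal was spatially detrended, and no step scales one array to another. Other deposited columns are flags of 0 or 1 that mark detected, saturated and uneven spots. The authors' value table holds linear intensity whose columns have nearly the same sorted values, and how it and its control column were made is not given in the sources used here.

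Control spots and uneven probes (10 of 16217 region probes) were left out, spots of a probe averaged, and log2 intensity minus the log2 75th percentile of the array used (Python 3.11.15, pandas 2.3.3; limma 3.58.1 for normexp with offset 50). Probe positions are those of the deposited files in mm9, and the exons and introns of regions are not given because the gene table used here is of another build. Gene names came from a RefSeq table (GRCm38.p6), which named 31284 of 39415 other probes. With 1 array a group no test across samples could be run, and the number of arrays limits the precision. Replicate spots had a median SD of up to 0.07. Region steps were tested on simulated data.

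The members, the lists and the naming rule were chosen with earlier results of these data known. Named were the 6 brightest regions, the 8 largest increases and decreases against untreated and the 5 between treated arrays by the all-probes rule, the 4 largest bounds each way, the 4 intervals whose strands differed most, regions near landmark genes, and those the files name; ranges stand for members not given singly. The probe with the lowest difference and the single bright spot were chosen after their values were seen. Alternatives were normexp correction, scaling to detected probes, quantile normalization, brighter probes, detection on all 3 arrays, the brightest probe of a region, leaving out GT and AC runs, keeping uneven spots, merging overlapping intervals, and the table's control.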

Additional observations from a re-analysis of the deposited data

How the results depend on the processing

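No paired analysis was possible because each group has 1 array, and for the same reason no array could be left out. Of 138 alternative values of 18 results, 102 stayed within 1.5 times a count or within the spread of replicate spots of a median, 35 moved and 1 turned sign. Normexp correction left 34 regions higher and 34 lower on the A2 array, 51 and 36 on the RA plus D3V array, and 10 and 11 between the treated arrays, with 15, 20 and 8 regions past 2-fold by all of at least 2 probes, SDs between probes of 0.30, 0.29 and 0.19, and a median of -0.0486 between the treated arrays. With the brighter probes alone these counts were 29 and 37, 43 and 42, and 8 and 20, with 10, 20 and 6 by all probes, SDs of 0.27, 0.28 and 0.18, and medians of 0.18 for RA plus D3V against untreated and -0.0293 between the treated arrays. Quantile normalization gave medians of 0.13 for RA plus D3V and -0.0254 between the treated arrays. Against the control column the A2 median turned to -0.000377 and that of RA plus D3V was 0.0186. Merging overlapping intervals left 56 regions lower on the A2 array than on the other treated array. Scaling to the 75th percentile of detected probes, added after seeing the data, gave -0.20 for the median between the treated arrays. Under the looser detection flag 51.5%, 56.5% and 57.8% of region probes were detected on the untreated, A2 and RA plus D3V arrays. Normexp with an offset pulls dim signals together by construction, and the brighter set holds 500, 522 and 509 regions; other causes were not tested. Low signal over background limits these probes, as does 1 array a group.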

Other observations

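The brightest regions on the untreated array include ribosomal RNA. The region chr17:39983902-39985688 (forward) holds the array's probe of Rn18s, the 18S ribosomal RNA, and had means of 7.65 on the untreated array, 7.93 on the A2 array and 7.89 on the RA plus D3V array. A neighbouring region on the same strand had 7.35, 8.05 and 8.13. Regions on the reverse strand of the same locus were detected by all their probes on all 3 arrays, with 4.53, 4.71 and 4.72 over 2 probes of one and 4.55, 4.70 and 4.63 over 3 probes of another. All of these were higher on both treated arrays than on untreated, but against the control column the first differed by 0.01 and -0.02. The other regions brightest on the untreated array were mostly read by 1 probe, as chr11:22681800-22707775 (reverse, 9.63, 9.30 and 9.33) and chr7:108209996-108216032 (reverse, 9.48, 9.07 and 9.17).

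The largest single difference of any region came from 1 spot. In chr5:111612191-111652286 (forward) the probe at chr5:111652202-111652261 had signals of -5.19 on the untreated array, 9.49 on the A2 array and -3.71 on the RA plus D3V array, a difference of 13.2 between the treated arrays. Its neighbour on the same strand, whose last base adjoins its first, had -5.04, -5.20 and -6.13 and was not above background on any array, nor was the third probe of the region. The spot was marked neither saturated nor uneven. The nearest gene, Ttc28, lay 63882 bases away. The region is only a candidate noncoding transcript, and whether its sequence codes for protein was not tested. This region was chosen after its values were seen, and the cause was not tested.
A_30_P01026902: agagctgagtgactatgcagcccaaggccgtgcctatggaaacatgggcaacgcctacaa
A_30_P01030917: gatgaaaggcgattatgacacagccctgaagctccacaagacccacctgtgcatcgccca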
